A study of Mus musculus with 9 samples.

Results

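Expression of 7 genes of cholesterol synthesis was examined in a calf muscle, the gastrocnemius, of outbred CD-1 mice that were young adults. The genes were Hmgcs1, Sqle, Fdft1, Cyp51, Lss and Dhcr7, which encode enzymes of the pathway, and Srebf2, which encodes its main transcriptional regulator. They were taken from a named list, and every probe set annotated to one of them alone was used, which gave 19 of the 45037 probe sets tested. For comparisons over genes, each gene was read from its brightest probe set by mean level, which gave 7 of 18193 genes. The list carries the label of sterol synthesis and uptake, but none of the 7 is an uptake gene, and genes of uptake were therefore described from a separate list.

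The sham group had sham surgery and a placebo pellet, the castration group was castrated and had a placebo pellet, and the testosterone group was castrated and had a pellet with 2.5 mg testosterone of 60-day release. Pellets were implanted straight after surgery, and muscle was taken after 14 days from animals that had not been fasted. RNA of 3 animals was pooled for each Affymetrix array, and 3 such arrays per group measured 27 animals in all. An SD is therefore the spread between pools and not between animals. Values are log2 expression levels per probe set, and a difference of 1 on this scale is a doubling.

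Cholesterol is built from acetyl units through mevalonate, farnesyl diphosphate, squalene and lanosterol. The same mevalonate branch also supplies ubiquinone, dolichol and the lipid anchors of small GTPases, and skeletal muscle is known for its sensitivity to statins, which block this branch. SREBP-2, the protein made from Srebf2, is held in the endoplasmic reticulum by SCAP and INSIG proteins while sterols are plentiful. When sterols are scarce it is cut free by the proteases encoded by Mbtps1 and Mbtps2 and raises transcription of the synthesis genes and of lipoprotein receptor genes.

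SREBP-2 is known to act on promoters through a sterol regulatory element together with CCAAT and GC boxes, so the promoters of Hmgcs1, the gene whose readings varied most here, and of Srebf2 are shown. Each runs from 250 bases before to 50 bases after the start in RefSeq's GRCm38.p6 table, 5′ to 3′ on the gene's strand, which is the plus strand for both. Capitals mark the letters TCACNCCAC, CCAAT and GGGCGG on either strand. The Hmgcs1 promoter lies at chr13:119690101-119690400 and that of Srebf2 at chr15:82147019-82147318.
Hmgcs1: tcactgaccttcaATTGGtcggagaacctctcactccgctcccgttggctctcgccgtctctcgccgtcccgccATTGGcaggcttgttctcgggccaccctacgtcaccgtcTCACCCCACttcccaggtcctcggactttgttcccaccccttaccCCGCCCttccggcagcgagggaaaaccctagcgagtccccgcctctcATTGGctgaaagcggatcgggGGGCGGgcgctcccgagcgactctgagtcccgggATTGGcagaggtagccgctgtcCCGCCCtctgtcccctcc
Srebf2: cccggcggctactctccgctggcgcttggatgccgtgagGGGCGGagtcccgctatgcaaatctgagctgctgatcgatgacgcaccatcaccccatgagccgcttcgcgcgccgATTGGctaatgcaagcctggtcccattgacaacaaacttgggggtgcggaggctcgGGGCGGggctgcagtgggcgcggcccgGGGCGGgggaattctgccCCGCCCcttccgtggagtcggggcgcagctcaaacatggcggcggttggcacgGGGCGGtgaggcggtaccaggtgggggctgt

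The RefSeq table matched 5 of the 7 genes, with 7 promoters in all. TCACNCCAC occurred in 1 of these, that of Hmgcs1, where TCACCCCAC began 137 bases before the start. It occurred in 1.24% of all 32851 promoters of this length. Only these exact letters were searched, so an element that departs from them would be missed. CCAAT occurred in a promoter of Hmgcs1, Cyp51, Lss, Dhcr7 and Srebf2, and in 37.4% of all promoters. GGGCGG occurred in a promoter of the same 5 genes and in 35.7% of all promoters. AGAACA, an arm of the palindrome that the androgen receptor binds, occurred in a promoter of Hmgcs1 and of Dhcr7 and in 19% of all promoters, and it is not capitalised above. The matches shared no bases between motifs in the promoters shown, and they describe letters only, not binding.

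Most of the 19 probe sets gave readings close to the array medians, which lay between 3.15 and 3.26. In 11 of the 19 no group mean reached a log2 level of 4. Probe sets read this close to background respond little to the amount of RNA. This touched all probe sets of Sqle, Cyp51 and Lss. The brighter 8 were 4 probe sets of Hmgcs1, 2 of Fdft1, the only one of Dhcr7 and 1 of Srebf2, whose group means were 3.92 to 4.06. In pooled muscle, fewer cells of a type and less RNA per cell cannot be told apart.

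Sham 2 and testosterone 2 were the arrays least like the others, with mean correlations of 0.972 and 0.981 against 0.989 to 0.991 for the remaining 7. All 8 skeletal muscle fibre markers were present, and 7 of them read 13.65 to 14.24, at the top of the range of values, where a probe set may be close to saturation. Their mean deviation of −0.03 to 0.04 on all arrays therefore says little about differences in fibre content. Among the 7898 genes above a level of 4 in a group, 73.2% read higher after castration than in sham and 72.2% higher with testosterone than in sham, with median log2 differences of 0.13 and 0.12. Small positive differences from sham in brighter genes are to be read against that shift.

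Over all 18193 genes, 0 (0%) passed the limma test at an adjusted p of 0.05 in each of the 3 comparisons, so none of the 7 genes passed in any of them. The unadjusted p was under 0.05 in 4.72% of genes for castration against sham, 3.48% for testosterone against castration and 4.35% for testosterone against sham. Among the 7 genes it was under 0.05 once, for Hmgcs1 in testosterone against castration. The values of each gene are given in the order of the pathway.

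**Figure D1:**
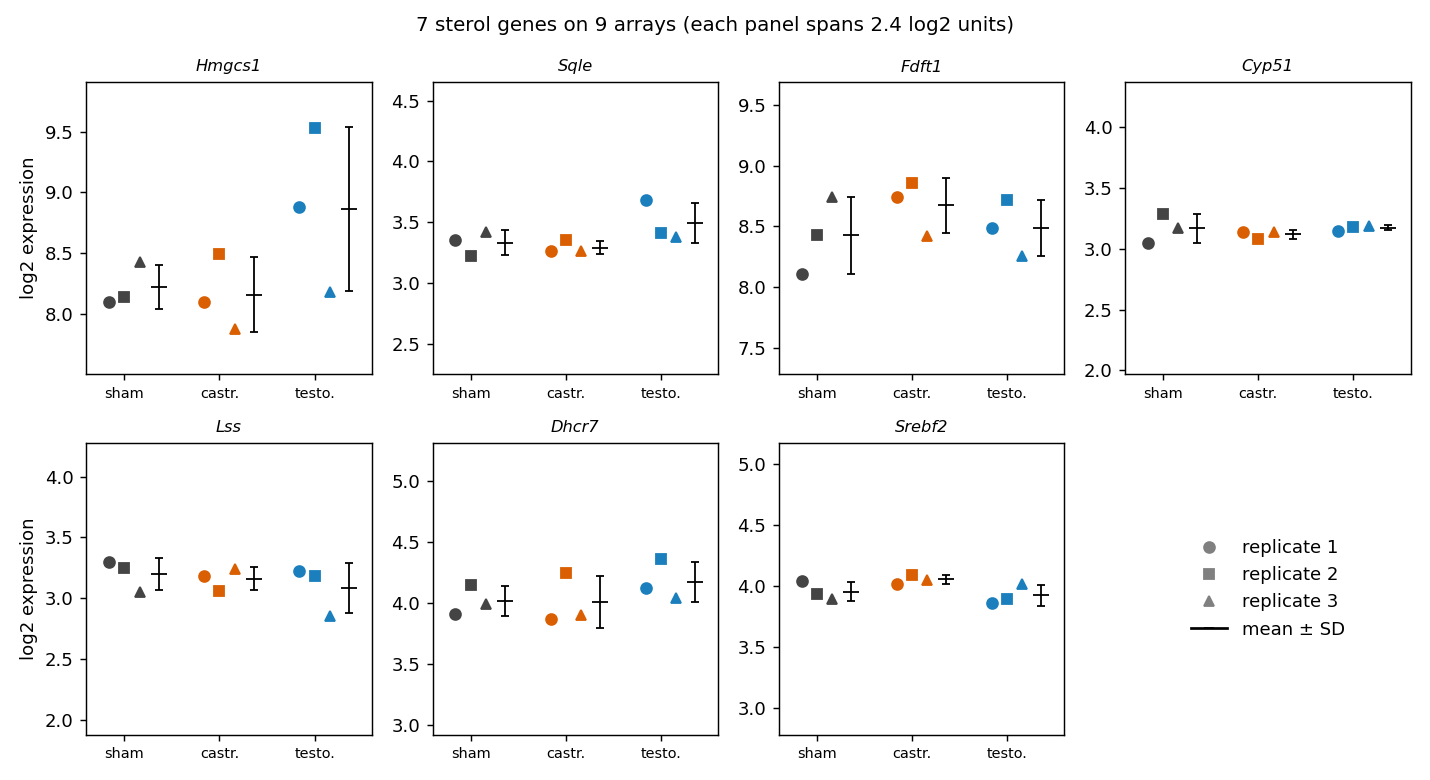
Log2 expression of the 7 genes, with 1 point per array, marker shape for the replicate number and a bar for the mean ± SD of 3 arrays per group. Every panel spans the same width of the log2 scale. Hmgcs1 spreads widely with testosterone, from 8.18 to 9.53, while Cyp51 stays between 3.05 and 3.29 on all arrays.

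Hmgcs1 encodes the cytosolic HMG-CoA synthase, an early enzyme of the mevalonate branch. It read 8.10, 8.14 and 8.43 in sham, 8.10, 8.49 and 7.88 after castration, and 8.88, 9.53 and 8.18 with testosterone. The arrays testosterone 1 and testosterone 2 were above every other array, while testosterone 3 lay within the range of sham and castration, so the groups overlapped. The means were 8.22 ± 0.18 in sham, 8.15 ± 0.31 after castration and 8.86 ± 0.68 with testosterone (SD, n = 3).

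The testosterone mean of Hmgcs1 was 1.63-fold above castration, a log2 difference of 0.71 (SE 0.31) with a 95% interval from 0.01 to 1.41 (limma, adjusted p = 1). Against sham it was 0.64 (SE 0.31, interval −0.06 to 1.34). The 2 differences share the testosterone arrays. Castration against sham gave −0.07 (SE 0.31), and its interval from −0.77 to 0.63 takes in differences of either sign. Without testosterone 2 the difference between testosterone and castration was 0.37, and without testosterone 3 it was 1.05 with an adjusted p of 0.607.

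The 5 probe sets of Hmgcs1 did not place the testosterone arrays alike. On 1433443_a_at, the one used for the gene, testosterone 2 was highest at 9.53. On 1433445_x_at and 1433444_at testosterone 1 was highest, at 8.06 and 7.39, and testosterone 2 followed at 7.72 and 7.26. On 1433446_at only testosterone 1, at 5.46, stood out, and testosterone 2 read 4.06, below each of the 3 castration arrays at 4.20 to 4.61. The remaining probe set, 1441536_at, read 2.76 to 2.92 throughout. All 5 had a positive difference between testosterone and castration, from 0.07 to 0.71, and testosterone 1 was above every sham and castration array on each of the 4 brighter ones. These 4 are annotated to the same source sequence, and all 5 were read from the same pools, so their shared sign adds little.

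**Figure D2:**
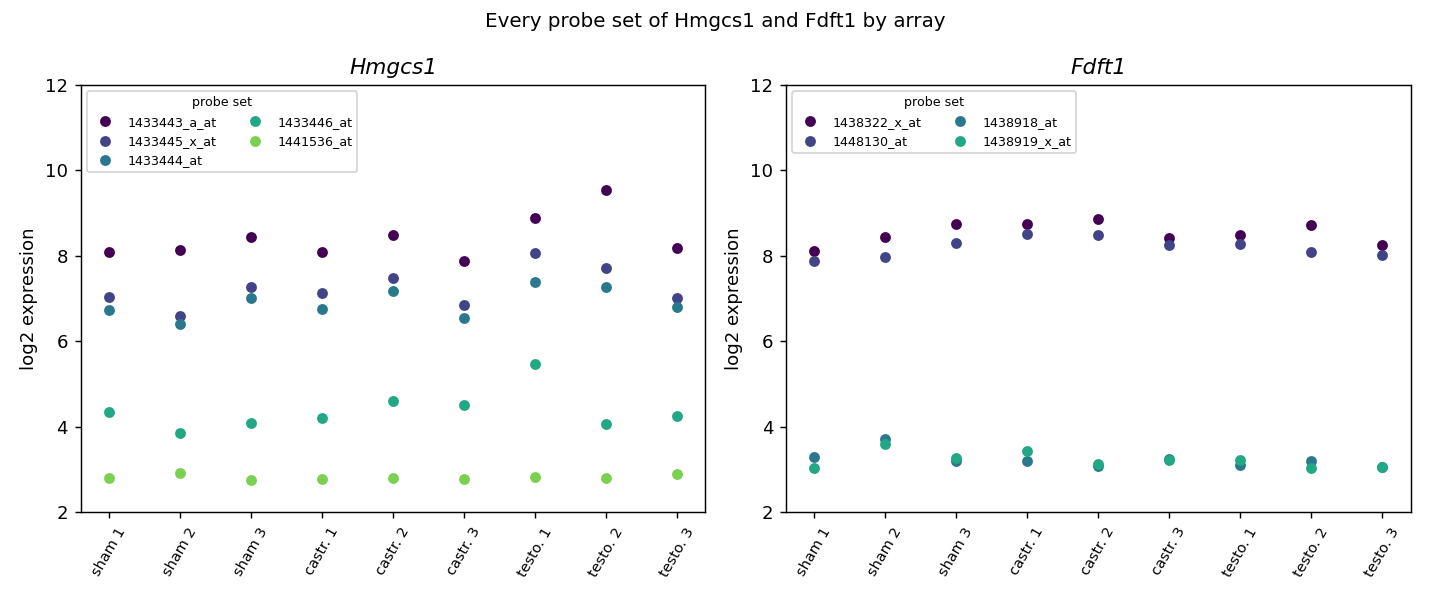
Log2 expression of the 5 probe sets of Hmgcs1 and the 4 of Fdft1 on each of the 9 arrays, with 1 colour per probe set. Testosterone 2 reads 9.53 on the upper Hmgcs1 probe set but 4.06 on 1433446_at, and the Fdft1 probe sets fall into a pair that starts at 7.87 and a pair that ends at 3.70.

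Fdft1 encodes squalene synthase, the enzyme that commits farnesyl diphosphate to sterols. It read 8.11, 8.43 and 8.74 in sham, 8.74, 8.86 and 8.42 after castration, and 8.49, 8.72 and 8.26 with testosterone. The groups overlapped in every comparison. The castration mean was 0.25 above sham (SE 0.19, interval −0.18 to 0.68) and the testosterone mean was −0.18 from castration (SE 0.19, interval −0.61 to 0.25).

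The second bright probe set of Fdft1, 1448130_at, read 7.87, 7.98 and 8.30 in sham, 8.50, 8.49 and 8.25 after castration, and 8.27, 8.09 and 8.02 with testosterone. Its difference between castration and sham was 0.36 (SE 0.13), with an unadjusted p of 0.0229 and an adjusted p of 0.883 over all probe sets. Its difference between testosterone and castration was −0.28 (SE 0.13). Between testosterone and castration both bright probe sets of Fdft1 thus had negative differences and all 5 of Hmgcs1 positive ones, and neither gene passed. Between castration and sham the Hmgcs1 probe sets had no common sign, with 0.19, 0.10 and 0.34 on 1433445_x_at, 1433444_at and 1433446_at against −0.07 and −0.04 on the other two. The other 2 probe sets, 1438918_at and 1438919_x_at, stayed between 3.03 and 3.70, with sham 2 highest on both.

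Sqle encodes squalene epoxidase, which makes the first oxygenated step toward the sterol ring. Its only probe set read 3.35, 3.22 and 3.42 in sham, 3.26, 3.35 and 3.26 after castration, and 3.68, 3.41 and 3.38 with testosterone. The 3 testosterone arrays were above the 3 castration arrays, by a mean of 0.20 (SE 0.10, interval −0.03 to 0.43, limma adjusted p = 1). All these readings lie close to the array medians.

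Lss, lanosterol synthase, closes the ring. Its group means were 3.20 ± 0.13 in sham, 3.16 ± 0.09 after castration and 3.08 ± 0.20 with testosterone (SD, n = 3). Its other probe sets, 1420014_at and 1426913_at, differed by 0.06 each between testosterone and castration, opposite in sign to the −0.08 of the probe set used. No direction can be given for Lss from these readings.

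Cyp51, the lanosterol demethylase, read 3.05, 3.29 and 3.17 in sham, 3.14, 3.08 and 3.14 after castration, and 3.15, 3.18 and 3.19 with testosterone. The testosterone arrays lay above the castration arrays, but by a mean of only 0.05 (SE 0.08), and the sham arrays spanned both groups. The interval from −0.13 to 0.24 bounds the difference in readings, although not the difference in RNA, at a level this close to the array median. The other probe sets of Cyp51 read 2.56 to 3.05.

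Dhcr7 encodes the reductase of the last step to cholesterol. It read 3.91, 4.15 and 3.99 in sham, 3.87, 4.25 and 3.90 after castration, and 4.12, 4.36 and 4.04 with testosterone. Testosterone 2 was highest and castration 2 next, and the groups overlapped. The difference between testosterone and castration was 0.17 (SE 0.13, interval −0.13 to 0.47), and castration and sham differed by −0.01 (SE 0.13, interval −0.31 to 0.29).

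Srebf2, the regulator, read 4.04, 3.93 and 3.89 in sham, 4.02, 4.09 and 4.05 after castration, and 3.86, 3.89 and 4.02 with testosterone. Its means were 3.96 ± 0.08, 4.06 ± 0.04 and 3.92 ± 0.09 (SD, n = 3), and the groups overlapped in each comparison. Testosterone and castration differed by −0.13 (SE 0.08, interval −0.31 to 0.05). The second probe set, 1426744_at, read 3.23 to 3.47 and differed by 0.03 in that comparison. SREBP-2 is controlled largely by cleavage of the protein, which RNA levels do not show.

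**Figure D3:**
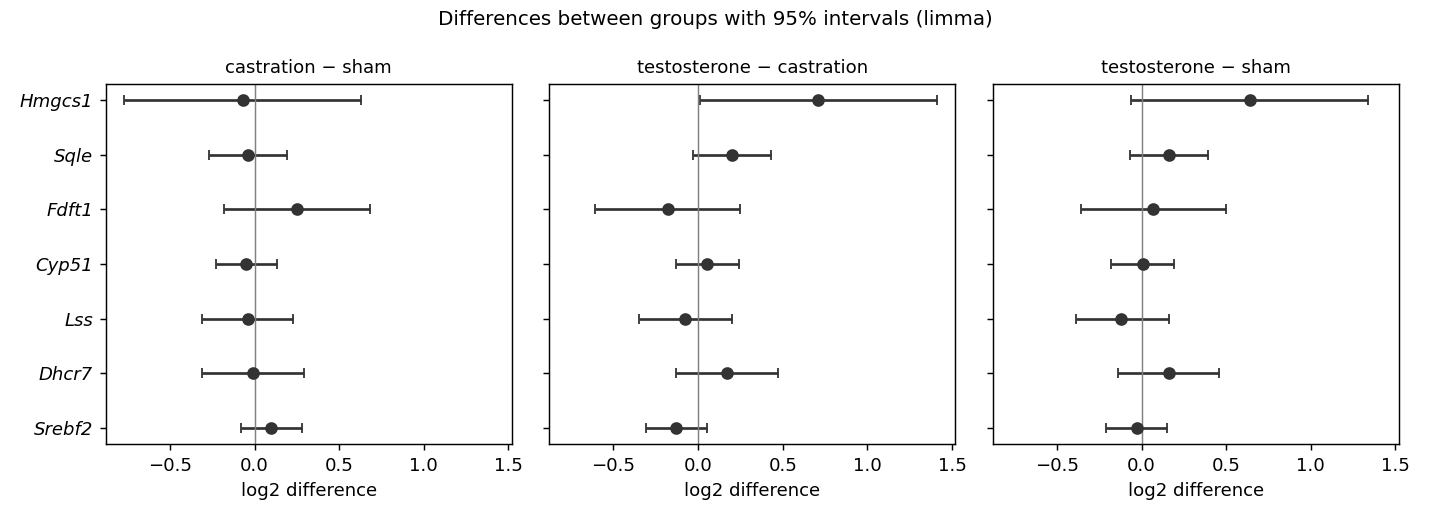
Log2 differences of the 7 genes in the 3 comparisons, with limma's estimate as a point and its 95% interval as a bar. The interval of Hmgcs1 in testosterone against castration runs from 0.01 to 1.41, and every other interval in the plot includes 0.

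Counted together, 2 of the 7 genes read higher after castration than in sham and 5 lower, with a median log2 difference of −0.04 against 0.01 over all genes. Between testosterone and castration 4 were higher and 3 lower, with a median of 0.05 against −0.01 over all genes. Between testosterone and sham 5 were higher and 2 lower, with a median of 0.07 against 0.01. Groups did not overlap for 0 of the 7 in castration against sham, where 8.89% of all genes did so. The arrays did not overlap for 2 of the 7, Sqle and Cyp51, in testosterone against castration, both toward higher with testosterone, where 4.22% of all genes did so in that direction. For testosterone against sham it was 0 of the 7, with 6.47% over all genes.

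Over the 19 probe sets, 13 were higher with testosterone than after castration, with a median of 0.06, and 0 passed among all 45037 probe sets (0%). The 3 that did not overlap in this comparison, all higher with testosterone, were those of Sqle, one of Cyp51 and the dimmest of Hmgcs1, against 3.85% of all probe sets in that direction. All 3 lay below a level of 4. Against sham, 14 of the 19 were higher with testosterone, with a median of 0.07, and 1 did not overlap, 1438918_at of Fdft1, toward lower, against 3.71% of all probe sets in that direction. Castration against sham had 8 higher and 11 lower, and 0 did not overlap, against 7.97% of all probe sets.

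The genes whose pattern over the 9 arrays was most like the mean of the 7 were Limd1, Tlcd3b, Rgl2, Hdac5 and Polr2a. Their Pearson correlations with that mean were 0.970, 0.953, 0.949, 0.942 and 0.940, and Spearman's rho was 0.933, 0.950, 0.837, 0.937 and 0.850. They are the highest of 4047 genes ranked, over 9 arrays, and are given as a description. Of the 7, Hmgcs1 had the widest range over the arrays, 1.65, against 0.75 for Fdft1 and 0.24 for Cyp51. It therefore weighed most in that mean. In each of the 5 genes most like the mean testosterone 2 was the highest array, for example 8.09 in Limd1 and 7.51 in Polr2a.

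Of 16 other sterol synthesis genes listed, 13 were measured and 0 passed in any comparison. They divided 7 higher and 6 lower after castration against sham (median 0.04), and 8 higher and 5 lower with testosterone against castration (median 0.01). Against sham, 7 were higher with testosterone and 6 lower (median 0.04). Between testosterone and castration the smallest unadjusted p-values were those of Ebp, Hsd17b7 and Pmvk. Ebp, the sterol isomerase, read 5.01, 5.02 and 4.94 after castration and 4.55, 4.84 and 4.45 with testosterone, without overlap, a difference of −0.37 (SE 0.16). Hsd17b7, a ketosteroid reductase of the pathway, read 4.80, 4.85 and 4.80 after castration and 5.37, 5.59 and 5.29 with testosterone, also without overlap, a difference of 0.60 (SE 0.27). Its other 3 probe sets did not share this size, and the lowest of the 4 differed by −0.01. Pmvk, phosphomevalonate kinase, differed by 0.23 (SE 0.11). Over all genes, 4.22% did not overlap toward higher in this comparison, and 872 of 18193 did not overlap toward lower.

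Between castration and sham the smallest p-values among these genes belonged to Pmvk at −0.19, Ebp at 0.25 and Sc5d at 0.46 (SE 0.33). Between testosterone and sham they belonged to Sc5d, a sterol desaturase, at 0.69 (SE 0.33), Idi1 at 0.44 (SE 0.26) and Lbr at 0.37 (SE 0.22). Sham 2 was the lowest array for all of these 3, at 4.68 for Sc5d against 5.61 to 6.51 elsewhere. The 3 probe sets of Sc5d ran from −0.07 to 0.46 between castration and sham and from −0.12 to 0.69 between testosterone and sham. Idi1, isopentenyl diphosphate isomerase and a usual target of SREBP-2, differed by 0.20 between castration and sham and 0.24 between testosterone and castration.

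Among the regulators 7 of 8 were measured, and 0 passed. After castration 4 were above sham and 3 below (median 0.15), with testosterone 5 were above castration and 2 below (median 0.24), and 6 were above sham and 1 below (median 0.30). Sham 2 had the lowest mean deviation of this list, −0.49, against −0.18 to 0.30 on the other arrays. Scap, the escort protein of both SREBPs, read 6.07, 6.09 and 6.07 in sham, 5.88, 5.98 and 6.01 after castration, and 6.25, 6.36 and 6.22 with testosterone, so all 3 groups were apart. The testosterone mean was 0.32 above castration (SE 0.07, limma adjusted p = 0.564) and 0.21 above sham (SE 0.07), and castration differed from sham by −0.12. The other of its 2 probe sets had the opposite sign in every comparison, so the direction for Scap is not settled. Srebf1, which encodes the SREBP-1 proteins that favour fatty acid genes, read 7.82, 8.06 and 7.99 in sham, 7.47, 8.05 and 7.76 after castration, and 8.46, 8.25 and 8.17 with testosterone. The testosterone arrays were above all others, by a mean of 0.53 from castration (SE 0.15, adjusted p = 0.873) and 0.34 from sham (SE 0.15), while castration differed from sham by −0.20. Over all genes, 4.22% did not overlap toward higher between testosterone and castration. Of 18193 genes, 514 did not overlap toward higher between testosterone and sham, and 676 toward lower between castration and sham.

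Nr1h3, which encodes the oxysterol receptor LXR alpha, was 0.31 above sham after castration (SE 0.10, adjusted p = 0.838) and 0.30 above sham with testosterone (SE 0.10, adjusted p = 0.780), at levels of 3.31 to 3.83. Insig1, a sterol-dependent brake and SREBP-2 target, ranged from 3.11 to 4.73, with testosterone 2 highest and sham 3 next at 4.40. It differed by −0.28 between castration and sham, 0.58 between testosterone and castration and 0.30 between testosterone and sham (SE 0.39 each).

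Of 10 genes of uptake and trafficking 8 were measured, and 0 passed. After castration 5 were above sham and 3 below (median 0.03), with testosterone 5 were above castration and 3 below (median 0.09), and 6 were above sham and 2 below (median 0.18). Vldlr, a lipoprotein receptor that is strongly expressed in muscle and takes up triglyceride-rich lipoproteins, had the smallest p of this list in both comparisons with castration. It read 10.70, 10.21 and 10.43 in sham, 9.68, 9.54 and 9.99 after castration, and 10.80, 10.96 and 10.39 with testosterone. On this probe set, the brightest of 6, each castration array was below every sham and testosterone array.

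The castration mean of Vldlr was 1.64-fold below sham, a log2 difference of −0.71 (SE 0.19, interval −1.14 to −0.29, limma adjusted p = 0.787). The testosterone mean was 1.97-fold above castration, a difference of 0.98 (SE 0.19, interval 0.55 to 1.41, adjusted p = 0.287). Both differences use the same castration arrays. Testosterone and sham differed by 0.27 (SE 0.19, interval −0.16 to 0.69). All 6 probe sets of Vldlr shared the sign in each comparison, from −0.71 to −0.27 between castration and sham and from 0.36 to 1.10 between testosterone and castration. The arrays of castration and testosterone did not overlap on 5 of the 6, but those of castration and sham overlapped on 4 of the 6, where sham 2 was the lowest sham array. Over all probe sets, 3.85% did not overlap toward higher with testosterone than after castration. Between castration and sham 7.97% did not overlap, counting both directions. The 6 probe sets were read from the same pools and are not replicates. With limma's array weights, which give an atypical array less say in the fit, Vldlr passed in castration against sham (−0.93, adjusted p = 0.0178), a fit in which sham 1 had a weight of 4.61, sham 3 of 0.644 and sham 2 of 0.164. Without sham 2 and testosterone 2 its differences were −0.83 and 0.86.

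**Figure D4:**
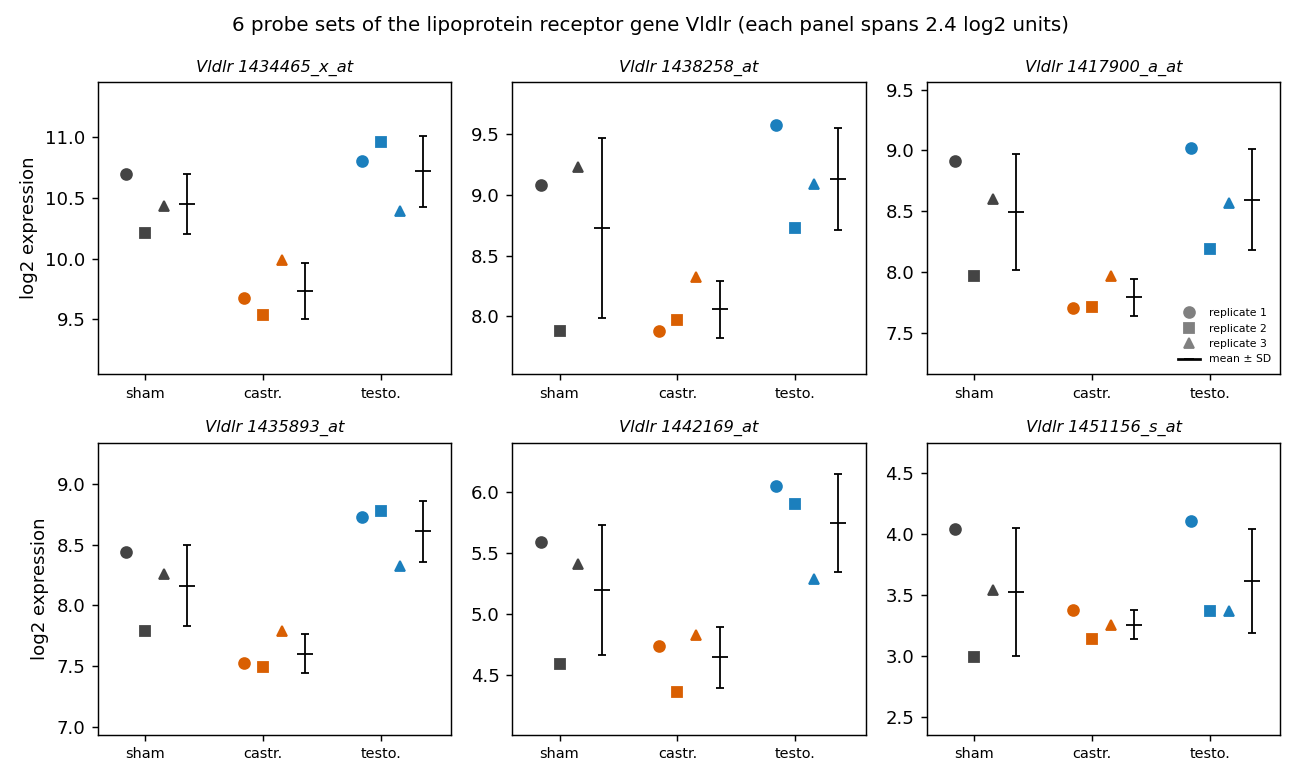
Log2 expression of the 6 probe sets of Vldlr, with 1 point per array, marker shape for the replicate number and a bar for the mean ± SD of 3 arrays per group; every panel spans the same width of the log2 scale. The castration mean is the lowest of the 3 on each probe set, but castration and sham overlap on 4 of the 6 probe sets, and castration and testosterone on 1451156_s_at.

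The other uptake and trafficking genes with the smallest p-values were Mylip, which degrades lipoprotein receptors, and Scarb1, the HDL receptor, in castration against sham, at 0.57 (SE 0.29) and 0.23 (SE 0.12). Without sham 2 these were 0.22 and 0.08. In testosterone against castration they were Lipa, the lysosomal acid lipase, at −0.30 (SE 0.12) and Lrp1 at 0.24 (SE 0.17). Lipa read only 3.36 to 3.89. Its 3 probe sets ran from −0.30 to 0.07 and the 2 of Lrp1 from −0.10 to 0.24, so neither direction is settled. In testosterone against sham the smallest p-values were those of Scarb1 at 0.31 (SE 0.12), Lipa at −0.24 (SE 0.12) and Mylip at 0.50 (SE 0.29). Without sham 2, Scarb1 was 0.16 and Mylip 0.15 in this comparison. The 3 probe sets of Scarb1 ran from −0.15 to 0.23 in castration against sham. In the efflux and storage list 6 of 7 genes were measured and 0 passed. There 2 were above sham after castration and 4 below (median −0.14), 5 above castration with testosterone and 1 below (median 0.16), and 3 above sham and 3 below (median 0.06). There Ch25h, Abca1 and Apoe led castration against sham at −0.21 (SE 0.11), 0.37 (SE 0.26) and −0.44 (SE 0.38). Leaving out 1 array gave −0.31 to −0.11, 0.08 to 0.69 and −0.58 to −0.17 for them, and Ch25h read only 2.74 to 3.22. Nceh1, Abcg1 and Ch25h led testosterone against castration at 0.52, 0.14 and 0.10. Leaving out 1 array gave 0.19 to 0.78, 0.00 to 0.21 and 0.05 to 0.12, and the 3 probe sets of Nceh1 ran from −0.13 to 0.52. Nceh1, Abcg1 and Abca1 led testosterone against sham at 0.45, 0.16 and 0.30. Leaving out 1 array gave 0.12 to 0.71, 0.02 to 0.23 and 0.01 to 0.62 there.

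Larger log2 differences were measured for genes of fatty acid synthesis, which share regulation by SREBPs. Scd1, the stearoyl-CoA desaturase, read 7.91, 10.57 and 9.33 in sham, 6.76, 7.10 and 6.20 after castration, and 9.87, 10.71 and 7.69 with testosterone. The castration arrays were below all others. It differed by −2.58 between castration and sham (SE 0.83, limma adjusted p = 0.838) and by 2.73 between testosterone and castration (SE 0.83, adjusted p = 1). The other probe set of Scd1 gave −0.21 and 0.32, and the mean of both gave −1.40 and 1.53. Over all 18193 genes, 676 did not overlap toward lower between castration and sham, and 4.22% toward higher between testosterone and castration. Fasn differed by −1.52 and 1.71 (SE 0.82), Thrsp by −1.26 between castration and sham, and Elovl6 by 0.30 between testosterone and castration. In the latter comparison the 3 probe sets of Elovl6 ran from −0.06 to 0.30. Without sham 2, Fasn was −0.66 and Thrsp −0.55 in castration against sham, and the 3 probe sets of Thrsp ran from −1.26 to 0.03. With testosterone against sham, Elovl6, Acly and Fasn led with 0.21, 0.21 and 0.19. Of the 8 genes, 7 were lower after castration than in sham (median −0.50) and 7 higher with testosterone than after castration (median 0.62). All 8 read higher with testosterone than in sham (median 0.09), and 0 passed in any comparison. Against sham, 52.1% of all genes read higher (median 0.01), and 72.2% of those above a level of 4 (median 0.12). At least 1 other probe set each of Acly, Acaca, Me1, Elovl6 and Thrsp read lower than sham, down to −0.63 for Thrsp.

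**Figure D5:**
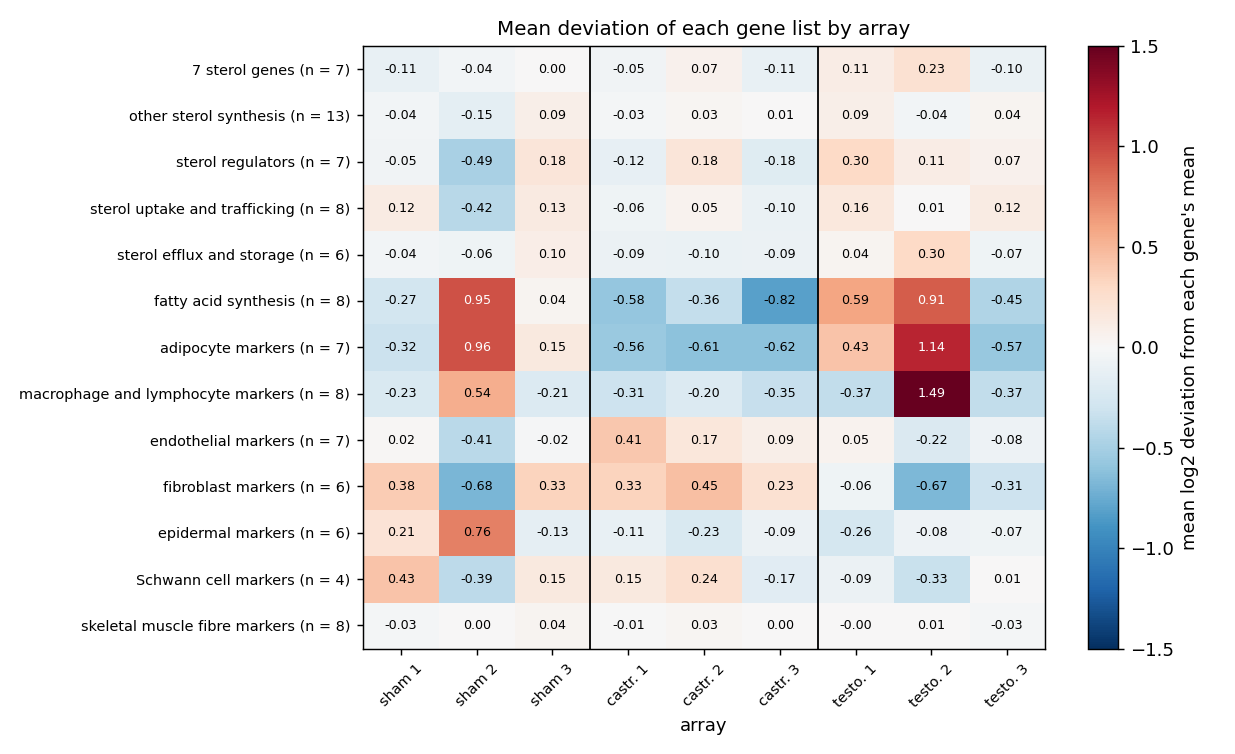
Mean log2 deviation of each gene list from its genes' own means, with 1 column per array and the number of measured genes in brackets. The 7 sterol genes stay between −0.11 and 0.23, whereas fatty acid synthesis genes and adipocyte markers range from −0.82 to 0.95 and from −0.62 to 1.14.

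The mean of the fatty acid list was high on the same arrays as that of fat cell markers, although not every gene was, since Me1 was lowest on testosterone 2 at 9.40. Adipocyte markers, of which 7 of 10 were measured, deviated by −0.32 to 0.96 in sham, −0.62 to −0.56 after castration and −0.57 to 1.14 with testosterone, and the fatty acid list by −0.27 to 0.95, −0.82 to −0.36 and −0.45 to 0.91. Adipoq, the fat cell hormone adiponectin, read 6.65 to 9.16 in sham, 5.29 to 5.58 after castration and 5.45 to 9.21 with testosterone. Lep read 2.73 to 4.32 over all arrays. The part of fat cells in these differences was not tested.

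The mean of the 7 sterol genes was highest on testosterone 2 and testosterone 1, with deviations of 0.23 and 0.11. Hmgcs1 alone deviated by 1.11 and 0.47 there, more than any other of the 7, so this ranking rests largely on it. These arrays scored 1.14 and 0.43 for adipocyte markers. Sham 2, with an adipocyte score of 0.96, had a deviation of −0.04 and an Hmgcs1 level of 8.14, inside the range of the castration arrays. Testosterone 2 also scored 1.49 for macrophage and lymphocyte markers, with all 8 measured, against −0.37 to 0.54 on the other arrays, and its Hmgcs1 level was the highest. Mean deviations ran from −0.41 to 0.41 for endothelial markers, −0.68 to 0.45 for fibroblast markers, −0.26 to 0.76 for epidermal markers and −0.39 to 0.43 for Schwann cell markers, with sham 2 at an end of each. The part of these cells in the Hmgcs1 readings of testosterone 2 was not tested. All 7 endothelial markers read higher after castration than in sham (median 0.40) and lower with testosterone than after castration (median −0.26). Of the 6 fibroblast markers, 5 read higher after castration than in sham (median 0.28) and 5 lower with testosterone than after castration (median −0.70), and 0 markers of either list passed. For fibroblast markers the castration difference leans on sham 2. These deviated by −0.68 on sham 2, by 0.38 and 0.33 on the other sham arrays, and by 0.23 to 0.45 after castration. Endothelial markers deviated by −0.41 on sham 2, by 0.02 and −0.02 on the other sham arrays, and by 0.09 to 0.41 after castration. Their castration arrays thus lay above each sham array. Of the genes above a level of 4, 73.2% read higher after castration than in sham. The part of fat, endothelial or connective tissue cells in the differences of Vldlr, Hmgcs1 and the other sterol genes was not tested.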

How the data were processed

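The deposited values are log2 expression levels for each probe set, and the authors made them with RMA, per the submitters' processing notes, whose version was not given in the sources used here. The method corrects for background, applies quantile normalisation and combines a probe set's probes into a single value, and nothing further was done before the tests. Whether the 9 arrays were normalised together was not stated either. Arrays carry no depth, and their number limits the precision. In the platform annotation 34945 probe sets had 1 gene, 932 had several and 9160 were unlisted, and 64 controls were left out. Symbols were updated through gene identifiers, and 204 found no match. Listed genes without a probe set of their own were not analysed here. Groups were compared by limma 3.58.1 under R 4.3.3 (lmFit, eBayes, two-sided) over the 9 arrays, with group as sole factor, Benjamini-Hochberg adjustment over 18193 genes or 45037 probe sets and a threshold of 0.05. Intervals are 95% intervals of that fit. No 2 arrays shared over 5.78% of values, and the fit was tested on simulated data. P-values measure the spread between pools. The members and lists were chosen with earlier results of these data known. From each other list the 3 genes with the smallest p per comparison were named, and Idi1 and Insig1 throughout. Genes like the 7 were ranked among those with a mean level of at least 6. Alternatives were a replicate block, only the groups compared, mean of probe sets, no suffixed probe sets, no genes below 4, median centring, renewed quantile normalisation, an intensity trend, analysis of variance without moderation, array weights and each array left out. Leaving out sham 2 and testosterone 2 together was chosen after seeing the data.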

Additional observations from a re-analysis of the deposited data

How the results depend on the processing

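With 3 arrays per group, and 11 of 19 probe sets below a level of 4, small differences could not be resolved. None of the 7 genes passed in any of 20 alternatives, with a lowest adjusted p of 0.139, and 11 of their 21 differences kept their sign in all of them. Of 50 differences of other named genes 43 kept it, and Vldlr in castration against sham (−0.93) was the only one to pass, with array weights.

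Signs changed for other differences, some of them from values as large as 0.30, and the cause was not tested. With the mean of probe sets, Hmgcs1 and Lss were 0.10 and 0.01 in castration against sham, Lss 0.01 in testosterone against castration, and Fdft1 and Lss −0.08 and 0.03 in testosterone against sham. Without suffixed probe sets, Hmgcs1 was 0.10 in castration against sham, Lss and Lipa were 0.06 and 0.07 in testosterone against castration, and Lss was 0.06 in testosterone against sham. Renewed quantile normalisation gave Fdft1 −0.02 and Acly −0.01 in testosterone against sham, and median centring gave Dhcr7 0.02 in castration against sham and Srebf2 0.00 in testosterone against sham. With array weights, Cyp51, Dhcr7 and Idi1 were 0.06, 0.04 and −0.12 in castration against sham, and Vldlr −0.02 in testosterone against sham. Without sham 2 and testosterone 2, Cyp51, Dhcr7 and Idi1 were 0.01, 0.06 and −0.09 in castration against sham, and Fdft1 and Insig1 −0.05 and −0.31 in testosterone against sham.

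Leaving out 1 array in castration against sham gave −0.23 to 0.07 for Hmgcs1, −0.09 to 0.00 for Sqle, −0.11 to 0.01 for Cyp51, −0.12 to 0.01 for Lss, −0.13 to 0.06 for Dhcr7, −0.09 to 0.34 for Idi1 and −0.54 to 0.06 for Insig1. It gave −0.14 to 0.04 for Lss in testosterone against castration. In testosterone against sham it gave −0.09 to 0.22 for Fdft1, −0.05 to 0.06 for Cyp51, −0.08 to 0.01 for Srebf2, −0.06 to 0.64 for Insig1, −0.40 to 1.05 for Fasn and −0.07 to 0.63 for Acly.

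The number of genes passing in castration against sham was 2 with the mean of probe sets, 5 after renewed quantile normalisation, 2 with an intensity trend, 174 with array weights, 18 without sham 2 and testosterone 2, and 0 to 7 leaving out 1 array (7 without sham 2, otherwise 0). In testosterone against castration it was 12 with only the groups compared, 2 with the mean of probe sets, 9 without genes below 4, 22 after renewed quantile normalisation, 12 with an intensity trend, 59 with array weights, 27 without sham 2 and testosterone 2, and 0 to 28 leaving out 1 array (28 without sham 2, 3 without sham 1, otherwise 0). In testosterone against sham it was 0 to 1 leaving out 1 array (1 without testosterone 3). Probe sets passing were 1, 32 and 15 in castration against sham and 16, 42 and 20 in testosterone against castration, after renewed quantile normalisation, with array weights and without both arrays, and 0 to 2 and 0 to 17 leaving out 1 array.

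The replicate block gave 0 genes passing in each comparison, with 840, 660 and 555 at an unadjusted p under 0.05 against 859, 633 and 791 without it, and Hmgcs1 stayed at 0.71 in testosterone against castration. Over all genes, same-numbered arrays had no common tendency to deviate together. Their correlations ran from −0.49 to 0.27, and 4 of 9 arrays correlated best with their own number. For single genes the block changed the SE both ways. In castration against sham it was 0.58 against 0.82 without the block for Fasn, and 0.64 against 0.83 for Scd1. For Dhcr7 it was 0.09 against 0.13, for Idi1 0.29 against 0.26 and for Vldlr 0.20 against 0.19.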

Other observations

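Several genes of the sterol lists had readings on sham 2 or testosterone 2 far from those on the other arrays. They were picked after their values were seen and no test was made. Mvd, mevalonate diphosphate decarboxylase, read 5.05 on sham 2 and 3.64 to 3.97 elsewhere. Npc1, the lysosomal cholesterol exporter, read 3.79 on sham 2 and 4.03 on testosterone 2, against 4.76 to 6.04 on the other arrays. Fdps, farnesyl diphosphate synthase, read 3.80 on testosterone 2 and 4.65 to 5.36 elsewhere. Insig2, a retention protein of the SREBPs, read 6.61 on testosterone 2 and 7.28 to 7.89 elsewhere. Nceh1, a cholesteryl ester hydrolase, read 7.41 on testosterone 2 and 6.06 to 6.64 elsewhere.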
